A study of Mus musculus with 3 samples.

Results

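The G1 cyclins, cyclin-dependent kinases (CDKs) and CDK inhibitors were examined as 10 genes (Ccnd1, Ccnd2, Ccnd3, Ccne1, Ccne2, Cdk2, Cdk4, Cdk6, Cdkn1b and Cdkn2c) of 20886 named genes. An array probe was taken for one of them where its RefSeq accession maps to that symbol, which gave 14 of 55678 probes. Each of the 14 probes was printed as a single spot. The study asked about signals that the Notch ligand Dll1 gives to activated CD4+ T cells. It hybridised 1 one-colour array for each of 3 groups: wild type (WT), Dll1-/- (Dll1 KO) and Rbpj-/- (Rbpj KO). Rbpj is the DNA-binding factor through which Notch receptors act on their target genes. In all 3 groups the RNA came from CD4+ T cells of 8-week-old female C57BL/6 mice, collected 2 days after stimulation. The labels do not say in which cells each deletion was made, whether a Cre driver was used, how many mice stand behind an array or what the stimulus was. With 1 array a group there is no replicate check, so no difference below was tested. In RNA from a whole cell population, fewer cells of a type and less RNA per cell cannot be told apart.

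Progress through G1 is driven by D-type cyclins, which bind Cdk4 or Cdk6, and then by E-type cyclins, which bind Cdk2. These kinases phosphorylate the retinoblastoma protein and its relatives, which frees E2F factors to switch on the genes of S phase. Cdkn1b (p27) binds cyclin-CDK complexes, above all cyclin E with Cdk2, and Cdkn2c (p18) binds Cdk4 and Cdk6. A resting T cell holds a high level of p27, and stimulation through the antigen receptor and interleukin-2 brings in cyclin D2 and cyclin D3 and lowers p27, largely by protein turnover.

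RefSeq promoter windows on GRCm38.p6, from 250 bases before to 50 bases after a start site, were found for 7 of the 10 genes and came to 9 windows. Those of Ccnd1, Ccnd2 and Ccne2 were not matched. The promoters of both kinases that were measured on every array are shown, since they carry most of the letters searched for. Each is the 250 bases before the start site, 5′ to 3′ in the direction of the gene. Cdk4 lies on the plus strand at chr10:127063285-127063534 and Cdk2 on the minus strand at chr10:128705052-128705301. Capitals mark CACGTG and TTCCCA in Cdk4 and GCGGGAA in Cdk2.
Cdk4: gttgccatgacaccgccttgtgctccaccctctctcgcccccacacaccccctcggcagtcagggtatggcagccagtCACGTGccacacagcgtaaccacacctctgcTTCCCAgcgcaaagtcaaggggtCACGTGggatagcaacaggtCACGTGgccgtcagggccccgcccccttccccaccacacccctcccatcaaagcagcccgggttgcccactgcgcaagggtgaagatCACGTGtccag
Cdk2: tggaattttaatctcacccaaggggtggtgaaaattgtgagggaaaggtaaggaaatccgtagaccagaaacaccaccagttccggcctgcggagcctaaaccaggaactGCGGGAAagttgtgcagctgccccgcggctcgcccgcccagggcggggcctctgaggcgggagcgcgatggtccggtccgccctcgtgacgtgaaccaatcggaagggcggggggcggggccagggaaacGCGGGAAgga
The core letters of the Rbpj site, TGGGAA, were searched on both strands. They occurred in 25.6% of all 32851 promoter windows. Among the 9 windows they occurred in that of Cdk4 only, once, 141 bases before the start on the strand opposite to the gene, printed above as TTCCCA. The E2F core was searched as the letters TTCCCGC on both strands, and likewise as the variant letters TTCGCGC on both strands. The letters TTGCCGC were searched in the same way, and so was the last of the 4 variants, TTGGCGC on both strands. One or more of them occurred in 9.57% of all windows. Cdk2 had 3 of them, beginning 140 and 10 bases before the start, printed above as GCGGGAA since TTCCCGC lies on the strand opposite to the gene, and 41 bases after it. One of the 2 Cdkn2c windows had TTCCCGC once, 25 bases before its start. The E-box CACGTG, bound by Myc with Max, was added to the search after the Cdk4 sequence had been read. It was found in 7.15% of all windows. Cdk4 held 4 copies, at 172, 118, 98 and 11 bases before the start, and 8 of the 32851 windows (0.0244%) held at least 4. Both the letters and that cut were taken from the Cdk4 window, so the share describes it and tests nothing. Cdk6 and the other Cdkn2c window held 1 copy each. A match gives the position of letters and does not show that a factor binds there.

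Between 46.6% and 50.1% of probes were well above background on each array, and no spot was saturated. Probes printed repeatedly had a median spot SD of 0.06 to 0.07 log2, with a 95th percentile of 0.21 to 0.26. A level below is the processed signal on a log2 scale, set to the 75th percentile of its array, so that 0 is the signal that 75% of probes do not exceed. The 2 Rbpj probes read 0.25 and 1.82 on the WT array, 0.58 and 2.06 on the Dll1 KO array and -0.094 and 1.16 on the Rbpj KO array. The Rbpj KO thus lay 0.35 and 0.66 log2 units below WT, and signal remained there. For Dll1, the probe did not clear background on any of the 3 arrays. The labels do not say where either probe set lies relative to the deleted sequence, so these values do not check the genotypes. All 8 T cell markers, Cd4 among them, were well above background on every array. Of the other cell types, B cell markers numbered 3, 5 and 4 of 5 well above background in WT, Dll1 KO and Rbpj KO, with summed linear levels of 20.8, 20.7 and 14.2. Pax5 was not well above background in WT and the Rbpj KO, nor was Cd79a in WT. Both Cd8 genes were measured, with summed levels of 1.68, 1.70 and 0.924. Macrophage markers numbered 2, 3 and 2 of 5, with sums of 136, 102 and 213 that rest almost wholly on 1 Itgam probe, at levels of 7.06, 6.64 and 7.71. The other Itgam probes were dim and lay 0.41 and 0.085 below WT in the Rbpj KO, and Adgre1 and Cd14 were not well above background on any array. Csf1r was well above background on every array, with probes 0.61, 0.15 and 0.26 above WT in the Rbpj KO. The 3 neutrophil genes with a probe summed to 2.40, 1.73 and 3.26. S100a8 and S100a9 differed from WT by -1.34 and -1.14 in the Dll1 KO and by 0.70 and 0.86 in the Rbpj KO. Elane differed by -0.051 and -0.002. Natural killer markers numbered 1, 2 and 2 of 4, with sums of 0.380, 0.778 and 0.515, and no dendritic cell marker of 4 was well above background. The part of these cell types in the differences below was not tested.

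On the Rbpj KO array the measured G1 cyclins and their kinases lay below WT and both CDK inhibitors did not. Of all genes, 60.2% lay below WT there, and of the genes with the highest signals 74.1% did. Of 5 other CDK inhibitors measured, 4 lay below WT and 1 above. Of the 10 genes, 7 were well above background on all 3 arrays, through 11 probes. Ccnd2 was 1.62-fold lower than WT, and Ccnd3, Ccne1, Cdk2 and Cdk4 were lower by 0.34 to 0.37 log2 units. Cdkn1b was higher by 0.13 and Cdkn2c by 0.063, signs that both turned negative when arrays were scaled to their median or to spike-in controls, and Cdkn2c also after normexp with quantile normalization. On the Dll1 KO array the same 7 genes lay between -0.19 and 0.067 of WT.

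**Figure D1:**
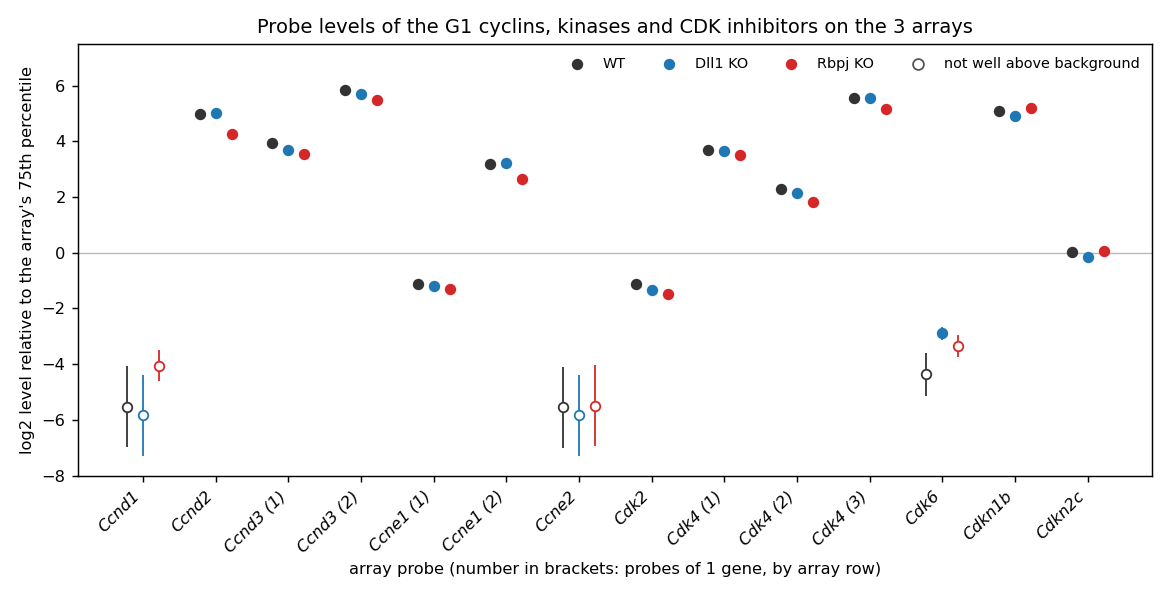
Level of each of the 14 probes on the WT, Dll1 KO and Rbpj KO arrays, in log2 units relative to the 75th percentile of the array. Points are single array values with the scanner's own error as bars (smaller than the point where none shows), open circles are probes not well above background, and Ccnd2 on the Rbpj KO array, at 4.27, sits below its other values of 4.97 and 5.04.

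Among the D-type cyclins, Ccnd2 (cyclin D2, the D cyclin induced early by mitogens in lymphocytes; probe A_52_P53906) had a level of 4.97 on the WT array, 5.04 on that of the Dll1 KO and 4.27 on that of the Rbpj KO. WT and Dll1 KO were close together and the Rbpj KO stood below both. The Rbpj KO differed from WT by -0.70 and from the Dll1 KO by -0.77, which is 1.70-fold. Feature Extraction's own error for such a difference was 0.20 log2 units, an error of the spot and not of mice. The Dll1 KO differed from WT by 0.067. Among all genes measured on both arrays, 4.74% were as far or further below WT in the Rbpj KO. Ccnd2 was the 1 gene of the 7 that lay below WT by at least 1.5-fold in the Rbpj KO, and 6.91% of 11578 genes were. Of the 3860 genes with the highest signals, 4.61% were. Between the knockouts it was again the 1 gene of the 7, and 6.34% of all genes lay as much as 1.5-fold or more below the Dll1 KO. Normexp background correction with quantile normalization gave -0.43 against WT, which ended the call, and -0.64 against the Dll1 KO. Probes within 20 rows and 20 columns of the Ccnd2 spot had a median of -0.10 in the same comparison, and with that median taken off the difference from WT was -0.60.

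Ccnd3 (cyclin D3, the D cyclin needed for expansion of thymocytes) has a pair of probes for different transcripts. The first by array row (A_51_P238448) read 3.94 in WT, 3.68 in Dll1 KO cells and 3.54 in Rbpj KO cells. The second (A_55_P2041075) read 5.83, 5.71 and 5.50 in the same order. Both placed WT highest and the Rbpj KO lowest. The Rbpj KO differed from WT by -0.40 and -0.33, and the Dll1 KO by -0.26 and -0.13. The -0.26 is the 1 difference between Dll1 KO and WT, of 11 probes, that exceeded the scanner's error. Ccnd1 (cyclin D1, the D cyclin of many other tissues; A_66_P111562) did not clear background on any of the 3 arrays, where its signals were 3.83, 2.71 and 8.51 intensity units, so it has no fold.

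Of the E-type cyclins, Ccne1 (cyclin E1, the partner of Cdk2 at the G1/S boundary) was measured by a pair of probes. The brighter (A_51_P408946) read 3.19 in WT, 3.23 in Dll1 KO cells and 2.65 in Rbpj KO cells. It followed Ccnd2 in shape, with the Rbpj KO 0.55 below WT and 0.58 below the Dll1 KO, just short of 1.5-fold in the latter. The dimmer (A_66_P125327) read -1.11, -1.20 and -1.29, and its difference of -0.18 from WT in the Rbpj KO was inside the scanner's error of 0.23. The 2 probes thus placed the Rbpj KO below WT by different amounts. Ccne2 (cyclin E2; A_65_P10671) did not clear background on any array either, and its signals were 3.79, 2.72 and 3.16.

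Of the kinases, Cdk4 (the partner of D cyclins; 3 probes) lay below WT in the Rbpj KO with each probe. Its first probe by array row (A_55_P1998188) read 3.70 in WT, 3.67 in Dll1 KO cells and 3.52 in Rbpj KO cells. The second (A_55_P2166639) read 2.29, 2.15 and 1.84. The third (A_55_P2163143) read 5.55, 5.55 and 5.15. Their differences between Rbpj KO and WT were -0.17, -0.45 and -0.40, and those between Dll1 KO and WT were -0.027, -0.13 and 0.0031. The first is within the scanner's error of 0.20. Cdk4's promoter, printed above, is the one with the Rbpj letters and the 4 E-boxes. Whether these letters bear on its level was not tested. Cdk2 (the partner of cyclins E and A; A_55_P2011852) read -1.13 in WT, -1.32 in Dll1 KO cells and -1.46 in Rbpj KO cells, which is -0.19 and -0.34 from WT. Its order of arrays was that of Ccnd3. Its promoter window holds 3 of the E2F letter strings, and the one 41 bases after the start lies outside the printed stretch. Cdk6 (the other partner of D cyclins; A_55_P2079630) was well above background on the Dll1 KO array only, with signals of 8.59, 21.0 and 13.8. Set against the lowest signal well above background on the WT array, it was about 1.25-fold higher in the Dll1 KO. Against that of the Rbpj KO array it was about 1.20-fold higher. These folds are approximate and are no lower bounds, since a probe can read above that lowest signal and still not be well above background.

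Cdkn1b and Cdkn2c, the CDK inhibitors among the 10 genes, had a different order of arrays. Cdkn1b (p27; A_55_P2026562) read 5.09 in WT, 4.90 in Dll1 KO cells and 5.22 in Rbpj KO cells. The Rbpj KO was 0.13 above WT, inside the scanner's error of 0.20, and 0.31 above the Dll1 KO, outside it. Cdkn2c (p18; A_55_P2074796) read 0.012, -0.15 and 0.075. Its differences were 0.063 for the Rbpj KO and -0.16 for the Dll1 KO from WT, both inside the scanner's error of 0.21, and 0.22 between the knockouts. Both inhibitors were lowest on the Dll1 KO array and highest on the Rbpj KO array, except where the scaling or the normexp values below turn the Rbpj KO under another array. Scaling to the array median put the Rbpj KO below WT, at -0.039 for Cdkn1b and -0.10 for Cdkn2c, and scaling to spike-ins put it at -0.61 and -0.68 from WT and at -0.22 and -0.31 from the Dll1 KO. For Cdkn1b the value after normexp with quantile normalization was 0.32, and for Cdkn2c -0.038.

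**Figure D2:**
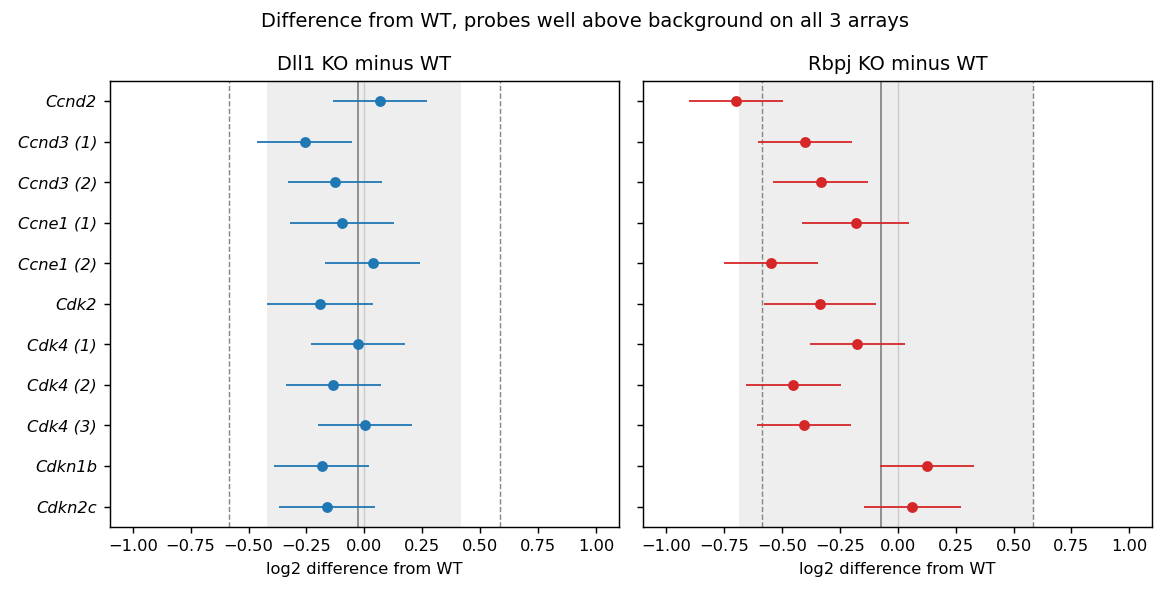
Log2 difference from WT of the 11 probes well above background on all 3 arrays, for the Dll1 KO (left) and the Rbpj KO (right). Bars are the scanner's error of the difference, the grey band holds the 5th to 95th percentile of all genes with their median as a solid line, and dashed lines mark 1.5-fold; on the right 9 of 11 probes lie below 0 and Ccnd2, at -0.70, is the only one past the dashed line.

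Over the 11 probes, the Rbpj KO lay below WT with 9, and 7 differences exceeded the scanner's error, 3 of them by more than 2 errors. Against the Dll1 KO it lay lower with 9, with 7 past the error and 2 past 2 errors. Between Dll1 KO and WT, 8 probes were below 0, 1 was past the error and 0 were past 2 errors. These counts have no share over all probes beside them, and the 11 probes cover 7 genes. They describe these probes only and do not set them apart from others. By gene, the median Rbpj KO minus WT difference was -0.34, with 5 of 7 below 0, beside -0.07 over all genes, of which 60.2% were below 0. Genes with high signals lay lower as a class: over those 3860 genes the median was -0.13 and 74.1% were below 0. The median over the 7 genes was -0.17 between the knockouts and -0.16 for Dll1 KO minus WT, with 5 and 6 of 7 below 0, beside -0.03 over all genes in both. Both knockouts were compared with the same WT array, so the comparisons share its error. The 5 cyclin and kinase genes were lowest on the Rbpj KO array, and the 2 inhibitors were highest there. The latter is subject to the sign changes with scaling given above. Of all genes, 55.1% lay below the Dll1 KO on that array, beside the 60.2% below WT. The share of all genes with either order was not computed, so the order does not set these genes apart.

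None of the 7 genes was at least 1.5-fold apart between Dll1 KO and WT, where 2.25% of 11811 genes were lower and 1.95% higher by that much. None was 1.5-fold higher in the Rbpj KO than in WT, where 4.86% of genes were, or than in the Dll1 KO, where 5.24% were. None was 2-fold apart in any comparison. The share of all genes 2-fold apart was 1.12% for Dll1 KO against WT, 3.53% for Rbpj KO against WT and 4.16% between the knockouts. The split of all genes between lower and higher turned on the scaling. With arrays scaled to the median, 12.4% of genes lay below and 2.91% above WT by 1.5-fold in the Rbpj KO, and 2.72% and 1.499% in the Dll1 KO. Between the knockouts it was 9.16% and 3.47%. The median of all genes in Rbpj KO minus WT moved from -0.07 to -0.24 with that scaling and to -0.81 with spike-ins.

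**Figure D3:**
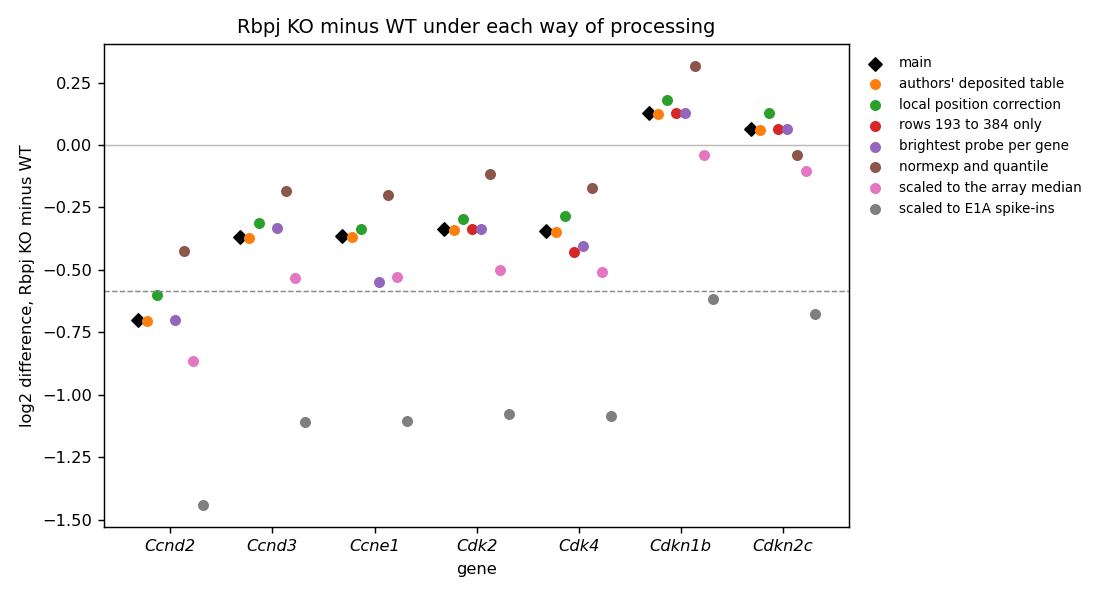
Rbpj KO minus WT log2 difference of the 7 measured genes under each way of processing, with the dashed line at 1.5-fold lower. Ccnd2 is the lowest gene under each setting that measures it and lies above the line after normexp with quantile normalization (-0.43), while Cdkn1b and Cdkn2c lie above every cyclin and kinase in each setting but change sign with the scaling, and Cdkn2c also after normexp.

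Ratios between genes on the same array do not depend on a constant that scales an array, though they do move with normexp and quantile normalization. The ratio of Ccnd2 to Cdkn1b was 1.77-fold lower on the Rbpj KO array than on the WT array (-0.83 log2 units) and 2.11-fold lower than on the Dll1 KO array (-1.08). On the Dll1 KO array it was 1.19-fold higher than in WT. Cyclin D2 signal was thus lowest relative to p27 signal in the Rbpj KO. In the Rbpj KO against WT, the ratio to Cdkn1b shifted by -0.49 for Ccnd3, -0.49 for Ccne1 and -0.47 for Cdk4. The ratio to Cdkn2c shifted by -0.76 for Ccnd2, -0.43 for Ccnd3 and -0.41 for Cdk4. After normexp with quantile normalization the shift of Ccnd2 relative to Cdkn1b was -0.74, and those relative to Cdkn2c were smaller, at -0.39 for Ccnd2, -0.15 for Ccnd3 and -0.14 for Cdk4. Within the D cyclins, Ccnd2 shifted by -0.33 relative to Ccnd3. These shifts show unequal change between genes of 1 array pair and have no replicate error.

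A list of 41 other genes of G1 and S control, of which 40 had a named probe, was read in the same way. Between Dll1 KO and WT, 37 were measured, 18 above and 19 below 0, with a median of -0.01 and 0 at least 1.5-fold apart. The highest difference was that of E2f8 (an E2F repressor), at 0.42, and the lowest that of Cdkn1c (p57), at -0.44. Between Rbpj KO and WT, 37 were measured, 11 above and 26 below 0, with a median of -0.18. Past 1.5-fold, 3 of these (8.11%) were higher and 5 (13.5%) lower, beside 4.86% and 6.91% of all genes. The count of 8 was 3 after normexp with quantile normalization.

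**Figure D4:**
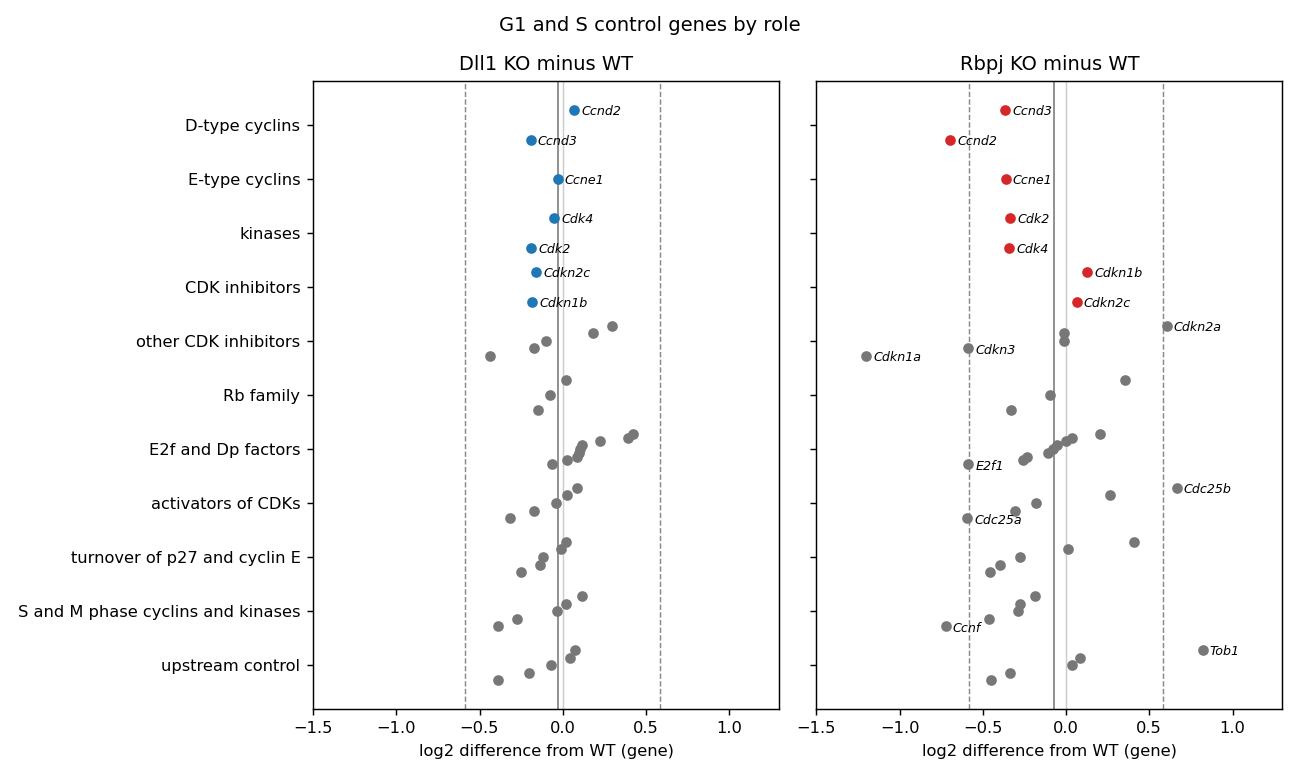
Log2 difference from WT of the 7 measured genes (coloured) and of the other G1 and S control genes (grey), 1 point a gene, ordered by role, for the Dll1 KO (left) and the Rbpj KO (right). Dashed lines mark 1.5-fold, the solid grey line is the median of all genes, and named grey genes are those past 1.5-fold, all of them in the Rbpj KO, where Tob1 lies at 0.82; the point of Cdkn1a is a mean that includes a probe not well above background there, and its other probe alone gives -0.66.

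Of the other CDK inhibitors, 5 were measured in the Rbpj KO and WT. In the Rbpj KO 4 lay below WT and 1 above, with a median of -0.01, beside 60.2% of all genes below. After normexp with quantile normalization 2 lay below and 3 above. Among them, Cdkn1a (p21, an inhibitor induced by p53) was lower in the Rbpj KO. Its probe with 10 spots (A_51_P363947) read 1.299 in WT, 1.497 in Dll1 KO cells and 0.64 in Rbpj KO cells, with spot SDs of 0.04, 0.03 and 0.09. The spots of the Rbpj KO array therefore averaged 1.58-fold lower than WT, a difference of -0.66. A second, dim probe was well above background on the Dll1 KO array only and has no fold between the Rbpj KO and WT. The mean over both probes was -0.40 after normexp with quantile normalization, short of 1.5-fold. Cdkn2a, whose locus encodes p16 and p19ARF, was higher by 0.60 in the Rbpj KO, and Cdkn3, a phosphatase that acts on CDKs, was lower by 0.59. Cdkn2b (p15) was well above background in the Rbpj KO only, through probe A_55_P1988183. By that probe it was about 2.62-fold higher than the lowest signal well above background in WT, an approximate fold and no lower bound. Its other probe (A_55_P1979526) stayed dim in WT, Dll1 KO and Rbpj KO cells, at signals of 4.63, 2.91 and 3.66, and has no fold.

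Of the factors that the G1 kinases release, E2f1 (an E2F activator) read 1.54 in WT, 1.56 in Dll1 KO cells and 0.95 in Rbpj KO cells, a difference of -0.59 from WT. The E2F and Dp group had 7 of 9 measured genes below WT in the Rbpj KO and 8 of 9 above WT in the Dll1 KO, with medians of -0.08 and 0.11. Over all genes 60.2% lay below WT in the Rbpj KO, with a median of -0.07 that is near the group's, and 55.7% lay below WT in the Dll1 KO, with a median of -0.03. With spike-in scaling the Dll1 KO count was 3 above and 6 below, with a median of -0.10. E2f1 itself was -0.47 from WT in the Rbpj KO after normexp with quantile normalization, short of 1.5-fold. E2f8 was 0.66 lower in the Rbpj KO than in the Dll1 KO. In the Rb family, Rb1 was 0.35 above and Rbl1 (p107) 0.33 below WT in the Rbpj KO. Among CDK activators, Cdc25a, a phosphatase of the G1/S transition, was lower by 0.60 and Cdc25b, its relative at mitotic entry, higher by 0.66. In the group for turnover of p27 and cyclin E, Fbxw7, which marks cyclin E for degradation, was 0.46 below WT and Cul1, a ubiquitin ligase scaffold, 0.41 above it. Skp2 had no named probe.

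The cyclins and kinase of S and M phase lay below WT in the Rbpj KO in 5 of 5 cases: Ccna2 by -0.46, Ccnb1 by -0.27, Ccnb2 by -0.18, Ccnf by -0.72 and Cdk1 by -0.29. Of all genes, 60.2% lay below WT there. In the Dll1 KO 3 of the 5 did. For the Rbpj KO, the Ccnb1 value averages a bright probe at -0.015, inside the scanner's error of 0.21, and a dim one at -0.53. That of Cdk1 averages a brighter probe at -0.55 and a dim one at -0.023. The Ccnb2 difference was inside the scanner's error of 0.20. Among upstream genes, Tob1, an antiproliferative protein of quiescent T cells, read 1.14 in WT, 1.21 in Dll1 KO cells and 1.96 in Rbpj KO cells, a difference of 0.82 from WT that was 0.079 with spike-in scaling and 0.83 after normexp. Myc, a transcription factor that acts through E-boxes, differed by -0.45 in the Rbpj KO and 0.041 in the Dll1 KO and is named after its values were seen. Between the knockouts, 38 genes of the list were measured, with a median of -0.10. Cdc25b (0.83) and Tob1 (0.75) were higher in the Rbpj KO by at least 1.5-fold, which makes 2 of 38 (5.26%) beside 5.24% of all genes. Cdkn1a (-0.86 with the probe of 10 spots), Cdc25a (-0.68), E2f8 (-0.66) and E2f1 (-0.62) were lower by as much, 4 of 38 (10.5%) beside 6.34% of all genes.

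Likeness to a member was measured over the 3 arrays as the distance between the pairs of differences from WT, among 37 genes of the list. Closest to Ccnd2, which had the largest difference in the Rbpj KO, were Cdc25a (distance 0.10 log2 units), E2f1 (0.12) and Ccna2 (0.24). Each of them lay above WT in the Dll1 KO and below it in the Rbpj KO. They were picked by that distance, so likeness in sign is built into the choice. For E2f1 the Dll1 KO difference of 0.027 was -0.016 with median scaling and -0.18 with spike-in scaling. Ccnd3 and Cdk2 had the largest differences in the Dll1 KO, both -0.19, and their order turned with the brightest probe per gene (-0.13 and -0.19) and with the local position correction (-0.15 and -0.16). After normexp with quantile normalization Ccnd2, at 0.22, was furthest from WT there. Closest to Ccnd3 were Klf2 (0.03), a factor of T cell quiescence, Rbl1 (0.05) and Cks2 (0.11). Each of these lay below WT in both knockouts, a likeness likewise built into the choice.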

How the data were processed

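Gene expression was measured on 3 one-colour Agilent arrays, 1 for each of WT, Dll1 KO and Rbpj KO, grouped by the genotype in the labels. The arrays shared 1 slide and 1 scan time, per the file headers. Labelled cRNA was made from 20 ng of RNA, per the labels. The authors deposited the processed signal, an intensity that Feature Extraction (version 10.7 per the submitters' processing notes, 10.7.1.1 per the file headers) had background-subtracted and detrended. Their deposited log2 table equals log2 of that signal plus 1 constant an array (-7.47, -7.27 and -7.14) within 0.01 for 100% of probes, and its column medians are -3.44, -3.39 and -3.28. How it was scaled was read from the values, since no label says.

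The members and lists were chosen with earlier results of these data known. Outlier spots (143, 163 and 139) and control spots were left out, spots of a probe were averaged, and each array's 75th percentile was subtracted. Probes were named through RefSeq accessions, which matched 27507 of 55678 probes. A gene's value is the mean over those of its probes that cleared background on 1 or more arrays, and it was counted where 1 of them was well above background on both arrays compared. A size of 1.5-fold counted as apart. For a probe well above background on only 1 array of a pair, its level there was set against its dim array. The value taken on the dim array was the higher of the probe's own level and the lowest signal well above background. The fold is approximate, since a probe can read above that lowest signal and still not be well above background. The normexp alternative (offset 50, limma 3.58.1 in R 4.3.3) used the median spot signal and the median local background, since no mean signal was used here. Other named genes were those at least 1.5-fold apart, or else the 2 with the largest difference in a group of the list. The steps, run in Python 3.11.15, were tested on simulated data. The number of arrays limits the precision.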

Additional observations from a re-analysis of the deposited data

How the results depend on the processing

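With 1 array a group no difference has a replicate error, and probes not well above background (Ccnd1, Ccne2 and, on a pair of arrays, Cdk6) cannot show a change. No paired analysis was possible because each group has 1 array. The local position correction was chosen after seeing the data. The median over the measured members, Rbpj KO minus WT, was -0.34. It was -0.14 with no filter on dim probes and with the lower part of the array surface only, -0.17 after normexp with quantile normalization, -0.51 with median scaling and -1.08 with spike-in scaling. Between the knockouts it was -0.17, and 0.040 with the lower part of the surface, which leaves out both D-type cyclins and Ccne1, -0.30 with median scaling and -0.71 with spike-in scaling. For Dll1 KO minus WT it was -0.16, then -0.015 after normexp with quantile normalization and -0.37 with spike-in scaling.

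The count at least 1.5-fold apart was 1 for the Rbpj KO against WT. At 2-fold, after normexp with quantile normalization and with the lower part of the surface it was 0. It was 7 with spike-in scaling, with which 77.2% of all genes were that much lower. With no filter it was 3, beside 8.09% of all genes lower and 9.93% higher by that much. The added genes were higher and well above background on neither array, Ccnd1 at 1.48 and Cdk6 at 1.02. Between the knockouts, the count of 1 was 0 at 2-fold and with that part, 2 with no filter and 5 with spike-in scaling, with which 47.0% of all genes were lower. For Dll1 KO against WT, 0 became 1 with no filter, Cdk6 at 1.48, beside 5.97% of all genes lower and 5.95% higher. Of the other G1 and S control genes, the counts of 8, 6 and 0 (Rbpj KO against WT, between the knockouts, Dll1 KO against WT) were 3, 2 and 0 after normexp and 30, 20 and 3 with spike-in scaling. After normexp 2.44% of all genes were lower and 1.89% higher in the Rbpj KO than WT, and 3.25% and 1.83% between the knockouts. With spike-in scaling 6.36% were lower in Dll1 KO than WT. In Dll1 KO minus WT, Ccne1 and Cdk4 changed sign with the brightest probe per gene and after normexp, and Ccnd2 with spike-in scaling. The E1A spike-ins read 0.41 higher than WT on the Rbpj KO array and 0.016 higher on the Dll1 KO array, before scaling. The cause of that gap was not tested.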
